A study of Arabidopsis thaliana with 6 samples.

Results

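UDP-glycosyltransferases (UGTs) were followed in RNA-seq of whole Arabidopsis thaliana plants that carried a gemin2 mutation, against the wild type (WT). The genes were taken by name, as the rows of the deposited gene count table whose symbol begins with UGT and a digit, with or without the prefix AT. This gave 54 of 33602 loci. The table's UGT1 and UGT2 are UGT75B1 and UGT75B2 in the RefSeq annotation and are called so here. Choosing by symbol left out other loci that RefSeq names UGT, and values of 8 of these are given near the end.

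Polyadenylated RNA was sequenced from 3 gemin2 libraries and 3 WT libraries, both of the Col ecotype. Seeds had been kept cold for 4 days at 4 °C, and whole plants were collected at 9 days, grown at 22 °C in constant light. The sample labels name no allele and describe each sample as pooled tissues. Headers of the authors' deposited tables name gemin2-1, and its kind of lesion is not given in the sources used here. They do not say whether the 3 libraries of each genotype were grown apart, so p-values here reflect only the spread between these libraries, which may be technical. GEMIN2 acts in the assembly of the small nuclear ribonucleoproteins of the spliceosome. The comparison asked how its mutation altered transcript levels and splicing.

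UGTs move a sugar from a UDP-sugar onto a small molecule, usually at a hydroxyl, carboxyl or amine group. In plants they finish flavonols, lignin precursors and glucosinolates, and they store or inactivate hormones such as auxin, cytokinin, abscisic acid and salicylic acid. Each holds near its C-terminal end a signature box that contacts the UDP-sugar, and in some UGTs the last residue of the box is known to bear on which sugar is used. Many UGT genes lie side by side on the chromosome as near copies.

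The signature box, 132 bases of coding sequence, was found in all 54 genes of the TAIR10.1 reference (RefSeq). Its last codon was CAA or CAG in 52 genes, CAT in 1 and AAT in 1. Both exceptions are flavonol enzymes of the UGT78 family, which also held some of the clearest changes between the genotypes. The boxes of the 3 UGT78D genes are shown because these enzymes act on the same flavonols with different sugars, and the capitals mark the last codon. They lie on chromosome 1, 10816006 to 10816137, plus strand (UGT78D1), chromosome 5, 5608068 to 5608199, minus strand (UGT78D2), and chromosome 5, 5603438 to 5603569, minus strand (UGT78D3).
UGT78D1: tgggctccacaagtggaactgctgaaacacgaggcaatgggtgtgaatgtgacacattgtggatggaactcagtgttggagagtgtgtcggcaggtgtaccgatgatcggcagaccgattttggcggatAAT
UGT78D2: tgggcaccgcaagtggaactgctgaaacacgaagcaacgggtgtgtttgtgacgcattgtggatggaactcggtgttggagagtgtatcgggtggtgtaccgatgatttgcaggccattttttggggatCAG
UGT78D3: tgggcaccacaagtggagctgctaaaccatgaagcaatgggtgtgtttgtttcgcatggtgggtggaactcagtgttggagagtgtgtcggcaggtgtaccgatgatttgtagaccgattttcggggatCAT

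The mutation was visible in the targeted gene. GEMIN2 (AT1G54380) had 71, 77 and 74 reads in gemin2, against 239, 262 and 221 in WT, a log2 fold change of -1.82 (adjusted p = 4.46e-09 with SE 0.0968, by edgeR). The libraries held 15467372 to 17217408 gene reads in gemin2 and 14049163 to 16732098 in WT. Organ markers of whole plants were present in both genotypes. Over all genes tested, 17.8% were called higher in gemin2 and 18.9% lower. Of 11 leaf photosynthesis markers 8 were called higher and 1 lower in gemin2, with a summed level of 47954 to 50221 CPM (read counts scaled for library size) in gemin2 and 42847 to 46971 in WT. Of 13 root markers tested 4 were called higher and 3 lower, with a summed level of 440 to 492 CPM in gemin2 and 539 to 576 in WT. Of these sums the iron transporter IRT1 alone gave 185 to 224 CPM in gemin2 and 312 to 338 in WT. Without it, a sum taken after the values were seen, the root markers came to 255 to 268 CPM in gemin2 and 227 to 238 in WT. None of the 3 seed markers and 2 flower markers tested was called, and the storage protein genes CRU2 and SESA1 had no read in any library. The part of these organ markers in the UGT values was not tested, and in whole plants fewer cells of a type and less RNA per cell cannot be told apart.

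Among the 48 UGT genes with enough reads to test, 10 were called higher and 9 lower in gemin2, and 29 did not pass (Benjamini-Hochberg adjusted p under 0.05, edgeR quasi-likelihood test over all genes). Over all 20762 genes tested the shares called were 36.7% in either direction, 17.8% higher and 18.9% lower. The 19 UGT genes called, 39.6% of the 48, are a share near that of all genes. Past the threshold with an absolute log2 fold change of at least 0.58 there were 7 of the 48 UGT genes, 4 higher and 3 lower. Over all genes this held for 1884 of 20762 (9.07%), 859 higher and 1025 lower. The median log2 fold change was -0.0022 over the UGT genes and -0.0010 over all genes, and the median absolute log2 fold change was 0.27 over the UGT genes and 0.18 over all genes. The UGT genes ranged between -1.11 and 1.10. In 22 of the 48 the libraries of the genotypes did not overlap, 12 with all gemin2 libraries above and 10 with all below, where 48.1% of all genes did not overlap (23.4% above, 24.7% below).

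**Figure D1:**
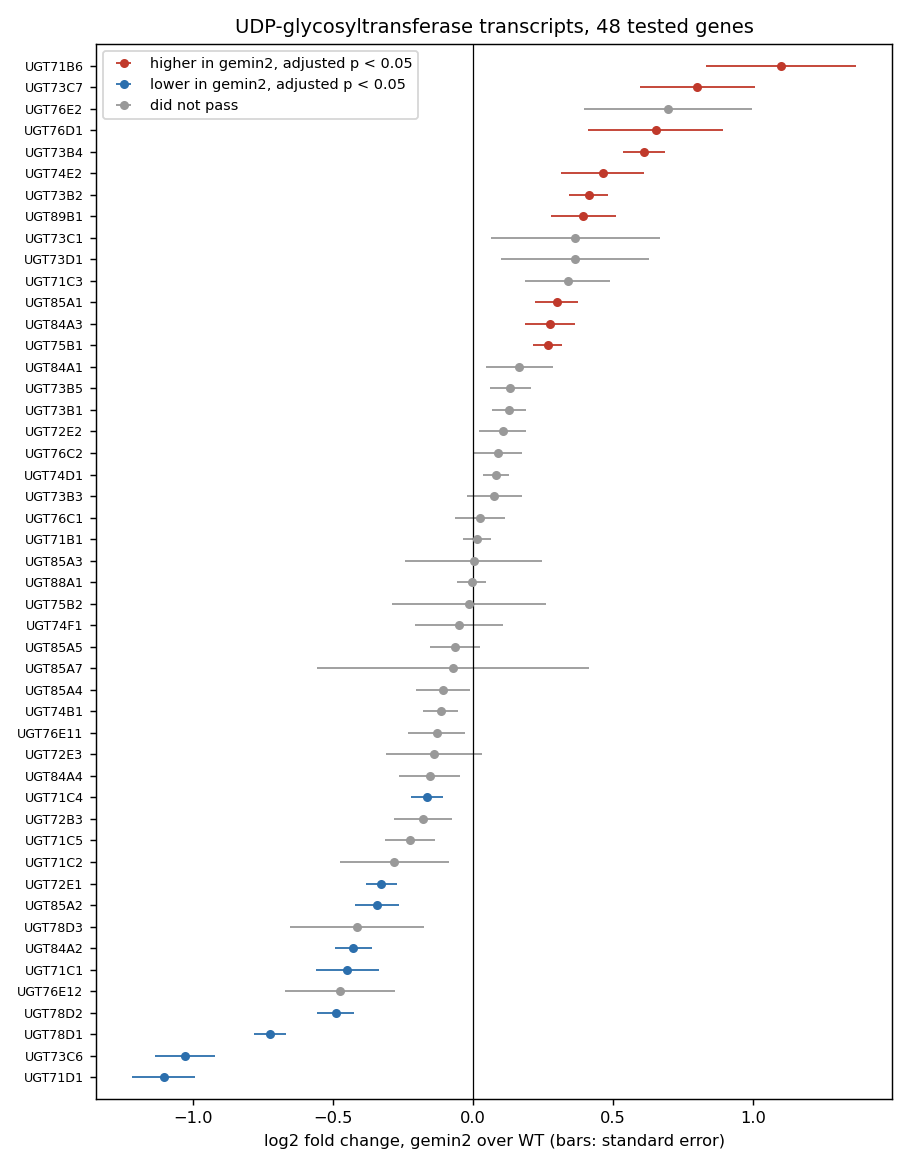
Log2 fold change of gemin2 over WT for each of the 48 UGT genes tested, ordered by value, with standard errors. The 10 genes called higher run up to 1.10 (UGT71B6) and the 9 called lower run down to -1.11 (UGT71D1). Grey genes did not pass.

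The remaining 6 members had too few reads. UGT84B1 and UGT84B2, which make glucose esters of auxin or close relatives, had 1 and 2 reads over all gemin2 libraries and none in WT. A count of 0 among the 44832823 WT gene reads allows a level of up to 0.0669 CPM, for counting error only. UGT73C2 had 2 reads in gemin2 and 1 in WT, and UGT71B8 had 4 in gemin2 and 2 in WT. UGT71B5 had 19 in gemin2 and 9 in WT, and UGT76E1 had 17 in gemin2 and 13 in WT. No member was without reads in every library.

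Levels per length, as CPM per kilobase of gene (RPKM), spread widely among the members. In WT 20 of the 54 had a mean of at least 10 RPKM and 11 had a mean under 1. The highest in WT was UGT72E1, a glucosyltransferase of monolignol aldehydes, at 59.8 ± 4.94 RPKM in gemin2 and 75.0 ± 1.16 RPKM in WT (SD, n = 3 each). UGT88A1 followed at 65.3 ± 2.00 RPKM in gemin2 and 65.5 ± 3.78 in WT, and UGT78D1 at 39.0 ± 1.75 in gemin2 and 64.6 ± 4.64 in WT. These 2 did not differ beyond their spread in WT, while in gemin2 every library of UGT88A1 was above every library of UGT78D1. Next came UGT74B1, at 47.4 ± 4.54 RPKM in gemin2 and 51.3 ± 1.41 in WT, and UGT78D2, at 32.8 ± 1.94 in gemin2 and 46.1 ± 4.26 in WT. In gemin2 the order was led by UGT88A1, then UGT72E1 and UGT75B1.

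Summed over the 54 genes the level was 1178 to 1247 CPM in gemin2 and 1291 to 1304 CPM in WT, so that no gemin2 library reached the lowest WT library. Abundant genes weigh most in this sum, and sums by family went both ways. The UGT78 genes came to 118 to 127 CPM in gemin2 and 181 to 208 in WT. The UGT73 genes came to 188 to 195 CPM in gemin2 and 149 to 175 in WT. The 5 genes highest in WT made up 34.6% to 35.1% of the summed RPKM in gemin2 and 39.2% to 41.9% in WT. They were chosen by their WT level, which by itself favours a larger share in WT, so nothing is concluded from this difference. Of these 5, UGT72E1, UGT78D1 and UGT78D2 were called lower and the others did not pass.

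**Figure D2:**
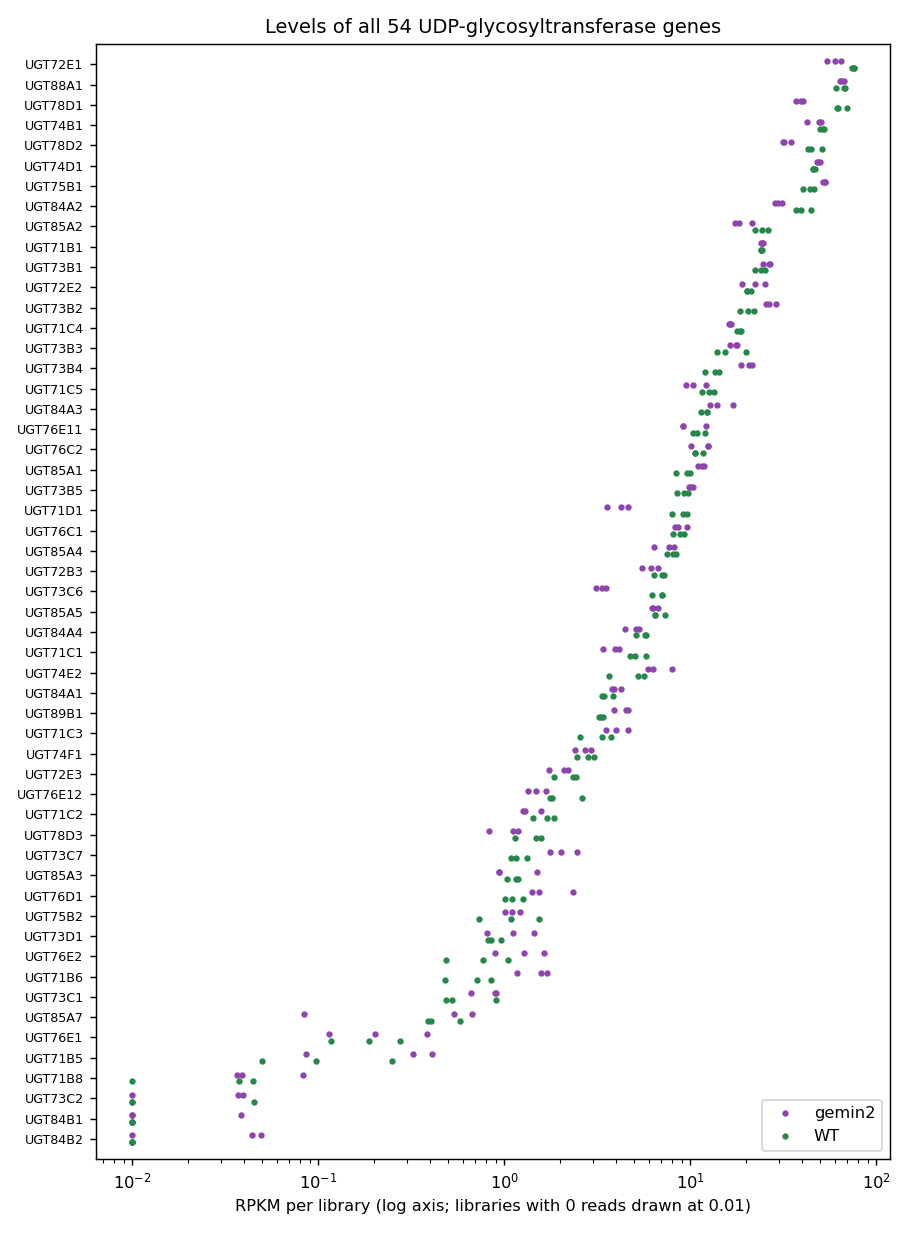
Level of each of the 54 UGT genes in RPKM per library on a log axis, ordered by the WT mean, with gemin2 and WT libraries as separate dots. The members run in WT from UGT72E1 (75.0 RPKM) to UGT84B1 and UGT84B2 with no read; UGT78D1, UGT78D2, UGT73C6 and UGT71D1 show gemin2 dots left of the WT dots.

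Of the 4 members on the flavonol list, 3 were called lower in gemin2 and none higher, where 18.9% of all genes were called lower. The list leaves out UGT73B2, which also has activity on flavonols and was called higher (0.41, given with the redox enzymes). UGT78D1 (AT1G30530, chromosome 1, 10814659 to 10816583, plus strand, TAIR10), which adds rhamnose to the 3-hydroxyl of flavonols, had 74.0, 67.8 and 72.4 CPM in gemin2, against 113, 114 and 128 CPM in WT. Its libraries did not overlap and the mean was 71.4 ± 3.20 CPM in gemin2 and 118 ± 8.49 in WT, a log2 fold change of -0.73 (SE 0.0569, adjusted p = 2.18e-07). UGT78D2 (AT5G17050, chromosome 5, 5607788 to 5609492, minus strand), the flavonol and anthocyanidin 3-O-glucosyltransferase, had 47.9, 48.7 and 53.3 CPM in gemin2, against 65.6, 67.5 and 77.7 CPM in WT. It too was lower in each gemin2 library, by a log2 fold change of -0.49 (SE 0.0662, adjusted p = 4.11e-05).

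UGT78D3, the flavonol arabinosyltransferase whose box ends in CAT, had low levels of 1.63, 1.22 and 1.72 CPM in gemin2 and 2.17, 1.66 and 2.29 CPM in WT. The libraries overlapped and the log2 fold change of -0.42 (SE 0.239, adjusted p = 0.190) did not pass. UGT73C6 (AT2G36790, chromosome 2, 15420190 to 15421866, minus strand), a flavonol 7-O-glucosyltransferase that also acts on brassinosteroids, had 5.93, 5.21 and 5.66 CPM in gemin2, against 11.9, 11.9 and 10.4 CPM in WT. The genotypes did not overlap and the log2 fold change was -1.03 (SE 0.108, adjusted p = 3.59e-06).

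UGT73C6 shares runs of sequence with a near copy. Its longest coding run identical to UGT73C5, a brassinosteroid and fungal toxin glucosyltransferase that the symbol rule does not include, was 110 bases, and 7.86% of the 50-base words of its exons occur at another gene. UGT73C5 had 224, 240 and 266 reads in gemin2, against 246, 306 and 233 in WT, and was called lower with a log2 fold change of -0.22 (adjusted p = 0.0438). The rule by which reads that map to both were counted is not given in the sources used here, so the value of UGT73C6 is uncertain to that extent. It also overlaps AT2G36792 on the other strand, and the protocol names no strand-marking step, so reads of the pair cannot be told apart. The same holds for UGT75B1 with AT1G05562 and UGT71B6 with AT3G21781.

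**Figure D3:**
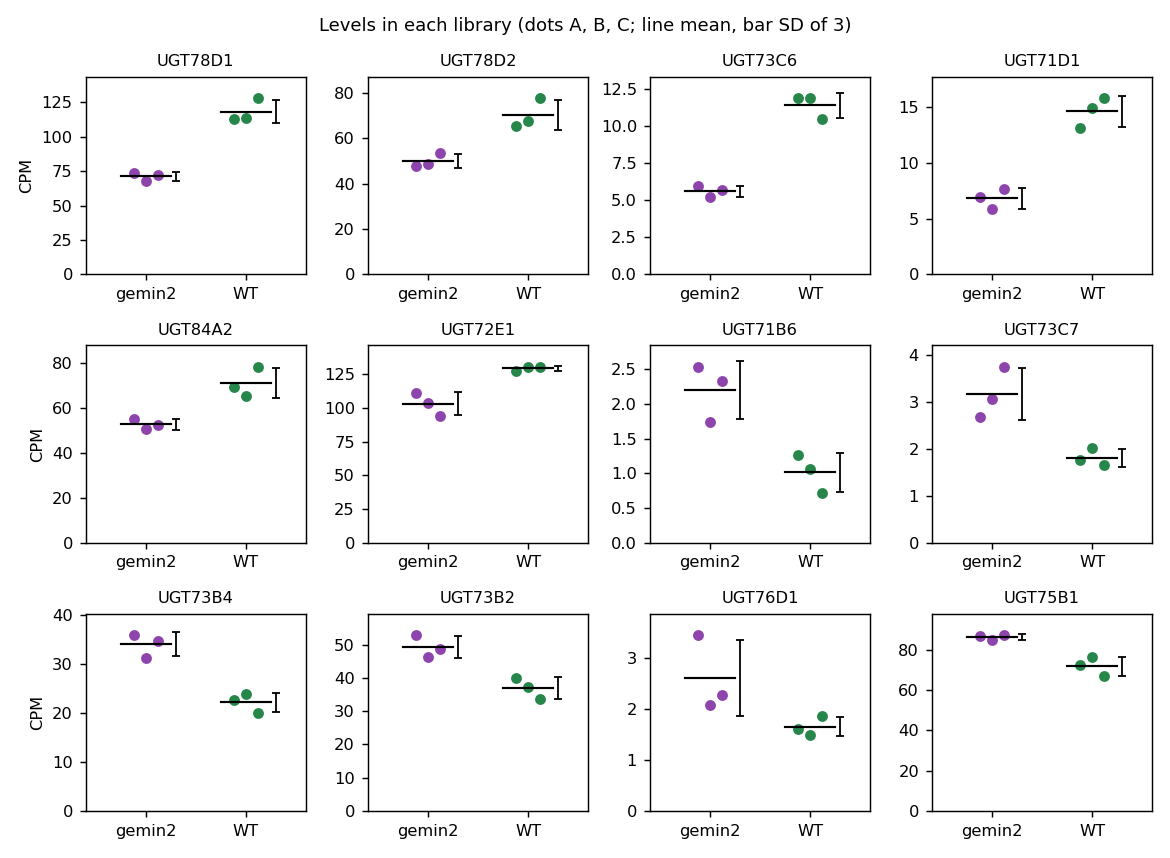
CPM in each library for 12 UGT genes called at the threshold, gemin2 left of WT, with the mean as a line and the SD of 3 libraries as a bar; each axis starts at 0. In all 12 panels every gemin2 library lies on the same side of every WT library.

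The glucosyltransferases of phenylpropanoid acids and lignin precursors divided, with 1 called higher, 2 lower and 4 that did not pass. The shares over all genes were 17.8% higher and 18.9% lower. UGT84A2 (AT3G21560), which makes the sinapoyl glucose from which leaves form sinapoyl malate, a sunscreen ester, had 55.4, 50.6 and 52.6 CPM in gemin2, against 69.5, 65.3 and 78.6 CPM in WT. All gemin2 libraries were below WT, with a log2 fold change of -0.43 (SE 0.0652, adjusted p = 0.000125). UGT72E1 (AT3G50740) had 111, 104 and 94.3 CPM in gemin2, against 127.0, 130.3 and 130.7 CPM in WT, and a log2 fold change of -0.33 (SE 0.0557, adjusted p = 0.000314). UGT84A3 (AT4G15490), which esterifies hydroxycinnamic acids, had 23.6, 25.7 and 31.2 CPM in gemin2, against 21.2, 22.7 and 22.7 CPM in WT.

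The UGT84A3 libraries did not overlap, and it was called higher with a log2 fold change of 0.27 (SE 0.0889, adjusted p = 0.0253), but without gemin2 C the value was 0.15 (adjusted p = 0.142), and the call was also lost without WT A (0.0838) or WT C (0.0508) and in DESeq2 (0.0667). The log2 fold changes of those that did not pass were 0.16 for UGT84A1 and -0.15 for UGT84A4, both hydroxycinnamate enzymes, and 0.11 for UGT72E2 and -0.14 for UGT72E3, both monolignol enzymes. UGT72E2 without gemin2 B passed at 0.21 (adjusted p = 0.0337).

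Of the members on the xenobiotic and redox list, 2 of the 5 tested were called higher and none lower. All genes tested were called higher in 17.8% of cases and lower in 18.9%. Of the members on the salicylic acid and defence list 1 of 2 was called higher. Of the same defence list, outside the symbol rule, UGT74F2 was called higher (0.73) and UGT76B1 lower (-0.39). UGT73B4 (AT2G15490, chromosome 2, 6761635 to 6763500, plus strand), known for glucosylating nitroaromatic compounds, had 36.0, 31.2 and 34.8 CPM in gemin2, against 22.7, 23.8 and 20.03 CPM in WT. Its lowest gemin2 library stood above its highest WT library and the log2 fold change was 0.61 (SE 0.0749, adjusted p = 1.73e-05). UGT73B2 (AT4G34135), a redox-responsive enzyme with activity on flavonols, had 53.0, 46.4 and 48.7 CPM in gemin2, against 40.1, 37.4 and 33.6 CPM in WT, a log2 fold change of 0.41 (SE 0.0691, adjusted p = 0.000281).

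The other 3 UGT73B genes did not pass, with log2 fold changes of 0.13 (UGT73B1), 0.08 (UGT73B3) and 0.13 (UGT73B5). UGT73B3 depended on WT A, without which it was 0.23 (adjusted p = 0.0241), and it was -0.02 without WT C. Near copies share sequence here too, and how reads of such stretches were counted is not given in the sources used here. The longest identical coding run was 159 bases between UGT73B4 and UGT73B5, which are 89.3% identical in coding sequence, and 82 bases between UGT73B2 and UGT73B3, which are 88.8% identical. UGT73B4 lies wholly within the UGT73B5 locus on the same strand in the deposited coordinates.

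UGT76D1 (AT2G26480), which glucosylates dihydroxybenzoic acids made from salicylic acid, had 53, 36 and 37 reads in gemin2, against 23, 25 and 26 in WT. At 3.45, 2.08 and 2.28 CPM in gemin2, against 1.61, 1.48 and 1.86 CPM in WT, the genotypes did not overlap and the log2 fold change was 0.65 (SE 0.240, adjusted p = 0.0449). This call rested on few reads: without gemin2 A it was 0.41 (adjusted p = 0.228), and it was also lost without WT A (0.0975), WT B (0.139) or WT C (0.0610) and in DESeq2 (0.153). UGT74F1, a salicylic acid glucosyltransferase, had a log2 fold change of -0.05 (SE 0.157) and did not pass.

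Of the members tested, 1 of 2 on the abscisic acid list, 1 of 3 for cytokinins and 1 of 2 for auxins were called higher. None on these lists was called lower. On the list of brassinosteroids and toxins the 1 member tested, UGT73C6, was called lower (-1.03). The shares over all genes were 17.8% higher and 18.9% lower. UGT71B6 (AT3G21780, chromosome 3, 7675004 to 7676494, minus strand), which makes the glucose ester of abscisic acid, had 39, 30 and 38 reads in gemin2, against 18, 18 and 10 in WT. Its level was 2.54, 1.74 and 2.34 CPM in gemin2, against 1.26, 1.07 and 0.715 CPM in WT, with no overlap and a log2 fold change of 1.10 (SE 0.268, adjusted p = 0.00467). UGT71C5, which also glucosylates abscisic acid, stood at 18.8 ± 2.44 CPM in gemin2 and 22.0 ± 1.61 in WT. Its log2 fold change of -0.22 did not pass (adjusted p = 0.0593), but it passed in 5 of 13 alternatives. These were without gemin2 A at -0.33 (adjusted p = 0.00884), without WT B at -0.28 (0.0404), with no filter beyond 1 read (0.0384), in the robust fit (0.0456) and with a replicate block (0.0317).

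Of the cytokinin UGTs, UGT85A1 (AT1G22400), which adds glucose to the hydroxyl of zeatin, had 20.1, 20.4 and 19.1 CPM in gemin2, against 14.5, 17.2 and 16.6 CPM in WT. Each gemin2 library was above WT, with a log2 fold change of 0.30 (SE 0.0767, adjusted p = 0.00668). UGT76C1 and UGT76C2, which glucosylate the cytokinin ring, did not pass, with log2 fold changes of 0.02 and 0.09. Of the auxin UGTs, UGT74E2 (AT1G05680), which acts on indole-3-butyric acid, had 9.57, 8.97 and 12.1 CPM in gemin2, against 7.93, 8.54 and 5.58 CPM in WT, and was called higher at 0.46 (SE 0.148, adjusted p = 0.0234).

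The UGT74E2 call was lost without gemin2 C, at 0.32 (adjusted p = 0.115), and without WT C, at 0.31 (adjusted p = 0.110). UGT74D1, which glucosylates auxin and its oxidised form, had 78.1 ± 1.47 CPM in gemin2 and 73.8 ± 0.915 in WT, with libraries that did not overlap and a log2 fold change of 0.08 (SE 0.0457, adjusted p = 0.177) that did not pass. UGT74B1, which adds the glucose of the glucosinolate core, had a log2 fold change of -0.12 (SE 0.0622, adjusted p = 0.163) and overlapping libraries.

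The remaining calls fell on genes with no role in these lists. UGT71D1 (AT2G29730, chromosome 2, 12703537 to 12705181, plus strand) had 107, 101 and 124 reads in gemin2, against 187, 252 and 221 in WT. In CPM this was 6.97, 5.84 and 7.63 in gemin2, against 13.1, 14.95 and 15.8 in WT, the lowest log2 fold change among the UGTs at -1.11 (SE 0.111, adjusted p = 2.43e-06). Its closest copy, AT2G29710, with which it shares an identical coding run of 103 bases, had 12, 15 and 18 reads in gemin2 and 23, 16 and 18 in WT, and did not pass.

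UGT73C7 (AT3G53160, chromosome 3, 19702456 to 19703976, minus strand) had 2.67, 3.07 and 3.75 CPM in gemin2, against 1.75, 2.02 and 1.64 CPM in WT, from 41, 53 and 61 reads in gemin2 and 25, 34 and 23 in WT. All gemin2 libraries were above WT, with a log2 fold change of 0.80 (SE 0.204, adjusted p = 0.00633). UGT75B1 (AT1G05560), reported to associate with callose synthase at the cell plate, had 87.0, 85.0 and 87.6 CPM in gemin2, against 72.3, 76.4 and 66.9 CPM in WT, a log2 fold change of 0.27 (SE 0.0529, adjusted p = 0.00114). UGT71C1 was called lower with a log2 fold change of -0.45 (adjusted p = 0.0057), and so was UGT85A2 with -0.34 (adjusted p = 0.00307).

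The smallest called change was that of UGT71C4, at -0.16 (adjusted p = 0.0361). Leaving out any library but WT C ended that call, with adjusted p-values of 0.0834, 0.0638 and 0.0946 without gemin2 A, B and C and 0.0888 and 0.0984 without WT A and B. UGT89B1 was called higher at 0.39 (adjusted p = 0.0153), and its call was lost without gemin2 A (0.0536), gemin2 B (0.0546) or WT B (0.0517). UGT88A1, among the most abundant members, stood at 135 ± 4.14 CPM in gemin2 and 135 ± 7.82 in WT, a log2 fold change of -0.01 (SE 0.0507, adjusted p = 0.942).

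By family, the 9 UGT73 genes tested held 3 higher and 1 lower, and the 8 UGT71 genes 1 higher and 3 lower. The 3 UGT78 genes held 2 lower and none higher. The UGT84 and UGT85 families each held 1 higher and 1 lower, of 4 and 6 tested. Of the 6 UGT76 genes 1 was called higher, and of the 4 UGT72 genes 1 was called lower. In the UGT74 and UGT75 families 1 of 4 and 1 of 2 were called higher and none lower. The only UGT89 gene was called higher, and the only UGT88 gene did not pass. Beside these small counts stand the shares over all genes, 17.8% higher and 18.9% lower. Among the 29 genes that did not pass, log2 fold changes lay between -0.48 (UGT76E12) and 0.70 (UGT76E2), and 11 were under 0.1 in size.

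Chromosomal neighbours did not all move alike. Neighbouring members no more than 20000 bases apart formed 15 clusters with 39 of the 54 genes. Coding sequences of the 36 pairs within clusters were 57.8% to 89.3% identical, with a median of 77.6%. In the UGT85A cluster of 5 genes on chromosome 1 (7890464 to 7906673), UGT85A2 was called lower at -0.34 and UGT85A1 higher at 0.30, although their coding sequences are 79.9% identical, and the 3 genes between or beside them did not pass. In the cluster of UGT71D1, UGT71C2 and UGT71C1 on chromosome 2 (12703537 to 12711696) all 3 values were below 0, 2 of them called. In the UGT73B3, UGT73B2 and UGT73B1 cluster on chromosome 4 (16343057 to 16349982) UGT73B2 alone was called. The differences between neighbours were not tested.

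**Figure D4:**
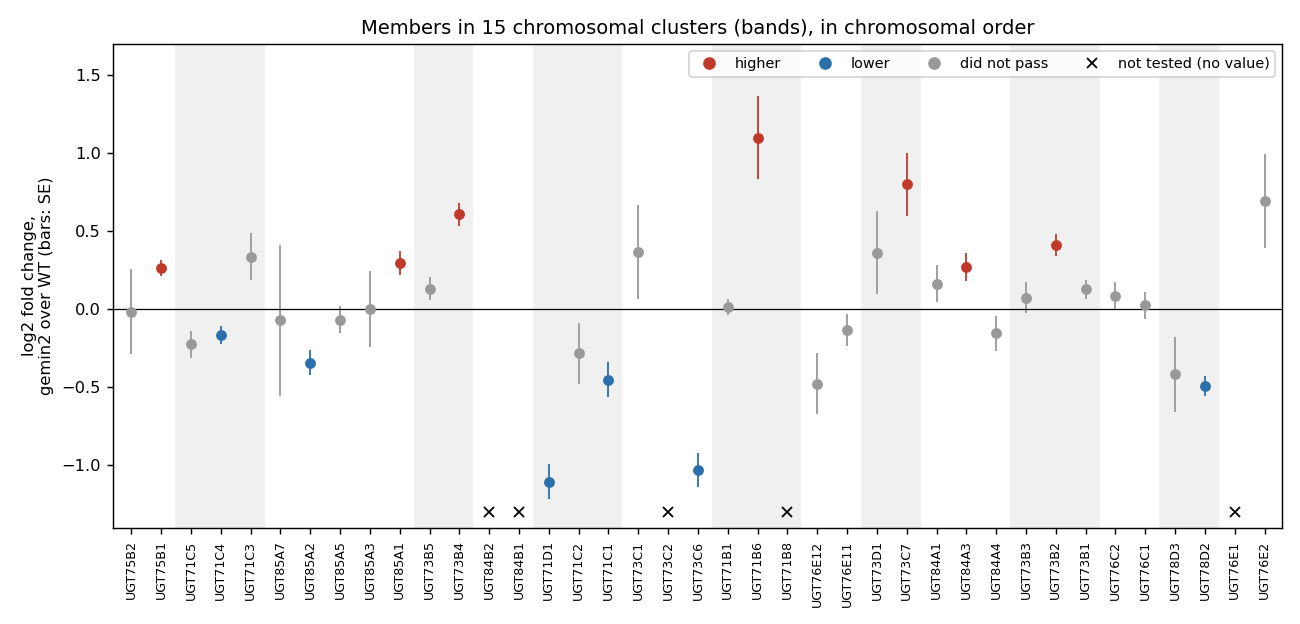
Log2 fold change of gemin2 over WT with its standard error for the 39 UGT genes in 15 chromosomal clusters, each cluster a band. Crosses at the bottom mark 5 genes with no value. The UGT85A band holds a gene called lower (-0.34) and one called higher (0.30).

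Promoter windows were searched for a few short motifs that factors of defence, light and the clock are known to bind, on both strands in the 250 bases before each RefSeq gene start. The W-box TTGACT occurred in 6 of the 10 genes called higher, 2 of the 9 called lower and 4 of the 29 that did not pass, and in 18.7% of the 20598 tested genes with a window. TTGACC, the other W-box form, occurred in 2 of 10, 2 of 9 and 1 of 29, and in 12.1% of the windows. Among the genes called lower, TTGACT was in UGT85A2 and UGT71C1, and TTGACC in UGT78D1 and UGT72E1. The G-box CACGTG occurred in 1 of 10, none of 9 and 3 of 29, and in 7.20%. The core TGACG occurred in 1 of 10, 1 of 9 and 9 of 29, and in 19.2%. The G-box also meets the looser pattern CANNTG, which is not capitalised. Lignin-related AC elements were rarer: ACCTACC was in 1 of 10, none of 9 and 1 of 29 (1.199% of all windows). ACCAACC was in none of 10, 1 of 9 and 1 of 29 (2.79%). ACCTAAC was in no member window (2.38%). The clock's evening element AAAATATCT was in 2 of 29 and in no called gene (2.48%). All are matches of letters and not binding sites. From the called genes with TTGACT, the windows of UGT73B4, UGT76D1, UGT71B6 and UGT73B2 are shown, and capitals mark every match to the W-box forms, the G-box or the TGACG core, read on either strand. They are chr2:6761385-6761634, plus strand, chr2:11263639-11263888, plus strand, chr3:7676520-7676769, minus strand, and chr4:16347435-16347684, minus strand (TAIR10.1). The UGT73B4 window lies inside the UGT73B5 locus, and the UGT75B1 window, not shown, overlaps the gene AT1G05570. No window of a gene called lower is shown.
UGT73B4: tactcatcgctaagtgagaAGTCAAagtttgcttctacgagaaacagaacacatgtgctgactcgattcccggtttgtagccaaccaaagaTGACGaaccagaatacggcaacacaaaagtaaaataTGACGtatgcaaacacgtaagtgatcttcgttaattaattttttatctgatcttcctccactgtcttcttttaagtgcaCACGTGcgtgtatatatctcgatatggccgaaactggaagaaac
UGT76D1: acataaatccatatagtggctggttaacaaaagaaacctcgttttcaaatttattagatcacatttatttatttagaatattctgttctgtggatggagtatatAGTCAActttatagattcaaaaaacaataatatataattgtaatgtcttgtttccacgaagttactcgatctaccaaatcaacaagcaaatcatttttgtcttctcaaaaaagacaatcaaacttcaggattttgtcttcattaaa
UGT71B6: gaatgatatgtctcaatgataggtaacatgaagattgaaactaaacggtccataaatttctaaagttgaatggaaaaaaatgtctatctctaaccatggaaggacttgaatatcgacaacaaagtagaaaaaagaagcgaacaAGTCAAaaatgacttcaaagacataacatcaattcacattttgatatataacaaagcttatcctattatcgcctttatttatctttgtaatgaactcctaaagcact
UGT73B2: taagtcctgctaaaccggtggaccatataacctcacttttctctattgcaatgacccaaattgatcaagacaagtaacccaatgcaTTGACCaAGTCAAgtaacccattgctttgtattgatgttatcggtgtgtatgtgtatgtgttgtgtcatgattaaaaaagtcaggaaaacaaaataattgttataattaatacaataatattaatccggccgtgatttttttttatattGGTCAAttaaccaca

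Introns were counted apart from genes. The coding sequence is in a single exon in 29 of the 54 genes and in 2 exons in 23. Of the 10 genes called higher 5 have a single coding exon, as do 6 of the 9 called lower. The intron table used here covers chromosomes 1 and 2 and part of 3, with 15 introns in 14 UGT genes, and 7 of these had enough reads to test against the reads of the gene. In this test 3 were called, where over all introns 9.4% of 4938 were called (5.93% higher and 3.46% lower in gemin2).

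The intron of UGT78D1 (chromosome 1, 10815407 to 10815502, 96 bases) had 2, 7 and 7 reads in gemin2, against 18, 22 and 26 in WT. Per 100 reads of the gene this was 0.456 ± 0.242 in gemin2 and 1.24 ± 0.185 in WT, and gene and intron reads were both lower in gemin2, the intron more so, with a log2 fold change relative to the gene of -1.42 (SE 0.378, edgeR with the gene count as offset, adjusted p = 0.0302). The intron of UGT85A1 (chromosome 1, 7904804 to 7906090, 1287 bases) had 5, 14 and 9 reads in gemin2, against 17, 17 and 18 in WT. Per 100 gene reads it had 2.83 ± 1.18 in gemin2 and 7.28 ± 1.25 in WT, a log2 fold change of -1.31 (SE 0.342, adjusted p = 0.0278). In both introns every gemin2 library was below every WT library per 100 gene reads. With DESeq2 the adjusted p-values were 0.299 for UGT78D1 and 0.282 for UGT85A1. Without gemin2 A they were 0.101 for UGT78D1 and 0.0860 for UGT85A1, in the same order without WT A 0.0580 and 0.0928, and without WT C 0.0953 and 0.0816. The UGT78D1 call was also lost without WT B (0.0581) and that of UGT85A1 without gemin2 C (0.0586).

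The third call is on a listed intron that also holds another gene. It is listed for UGT73B5 (chromosome 2, 6760330 to 6763245, 2916 bases) and holds nearly all of UGT73B4. In the reference it begins with GC and not GT, and it ends with AG. Its reads, 535, 545 and 561 in gemin2 and 329, 407 and 281 in WT, are close to those counted for the gene UGT73B4, 552, 540 and 565 in gemin2 and 324, 401 and 280 in WT. Relative to UGT73B5 the log2 fold change was 0.45 (SE 0.0729, adjusted p = 0.00135, and 0.774 with DESeq2). Reads of UGT73B4 exons and unspliced reads of UGT73B5 cannot be told apart there.

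The UGT78D1 intron is shown beside those of UGT74B1 (chromosome 1, 8526273 to 8526353, minus strand) and UGT85A4 (chromosome 1, 29451644 to 29451706, minus strand), short introns that were tested and did not pass, with the first and last 2 bases in capitals.
UGT78D1 I001: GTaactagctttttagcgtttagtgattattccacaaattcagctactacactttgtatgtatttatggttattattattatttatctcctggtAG
UGT74B1 I001: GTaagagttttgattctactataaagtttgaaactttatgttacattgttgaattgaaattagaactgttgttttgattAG
UGT85A4 I001: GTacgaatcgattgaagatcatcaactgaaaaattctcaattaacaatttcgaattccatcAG

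All 3 begin with GT and end with AG, as did 98.5% of the introns with a strand in the table, and they are 70.8%, 75.3% and 68.3% A or T. The UGT74B1 intron had 11, 9 and 8 reads in gemin2 and 4, 11 and 10 in WT (log2 fold change relative to the gene 0.16, adjusted p = 0.873). The UGT85A4 intron had 13, 19 and 13 reads in gemin2 and 10, 12 and 6 in WT (0.67, adjusted p = 0.220), with every gemin2 library above every WT library per 100 gene reads. The intron of UGT85A5 was under the filter, with 1, 2 and 1 reads in gemin2 and 14, 3 and 7 in WT. It passed the filter in some edgeR fits with 1 library left out. It was called lower without WT B (-2.97, adjusted p = 0.0134). Without gemin2 A, B or C it was not called (adjusted p = 0.111, 0.0956 and 0.0950). Of 7 annotated splicing bins in 4 UGT genes, 5 could be tested and none was called by edgeR, none had an unadjusted p under 0.05 and none was called by DESeq2, where 4.71% of all bins were called (2.6% higher and 2.11% lower). By edgeR the smallest unadjusted p-values were 0.250 for UGT85A2 E002, a retained intron bin, and 0.437 for UGT74F1 E003, an alternative 3′ site.

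**Figure D5:**
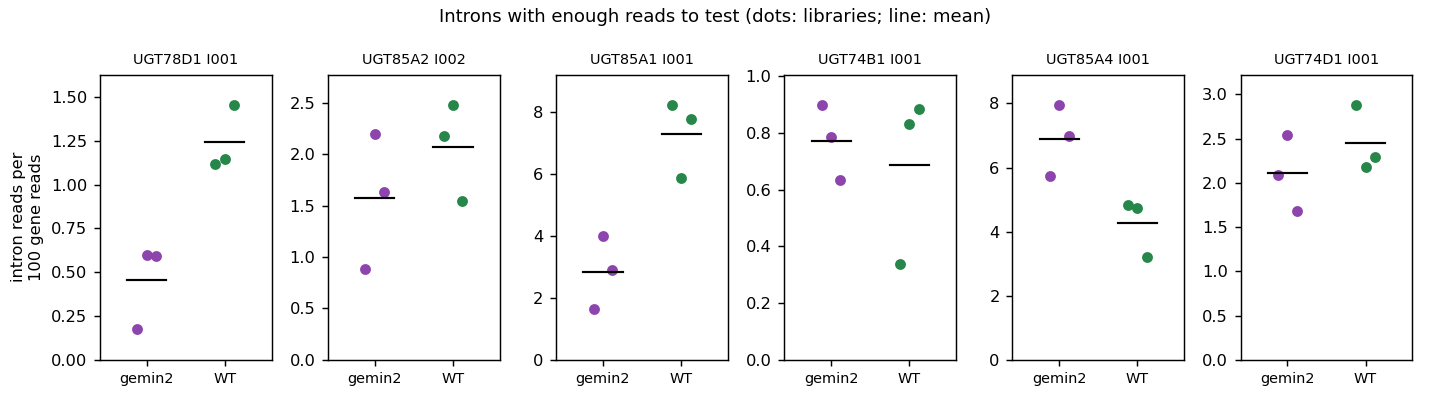
Intron reads per 100 gene reads in each library for the 6 UGT introns tested apart from the one that spans UGT73B4, gemin2 left of WT, with the mean as a line. The introns of UGT78D1 (0.456 in gemin2 against 1.24 in WT) and UGT85A1 (2.83 against 7.28) have all gemin2 dots below the WT dots, and that of UGT85A4 has them above.

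The authors' deposited table of changed genes lists 4 of the UGT genes among its 1226 rows, with log2 values of 0.61 for UGT73B4, -1.11 for UGT71D1, -1.03 for UGT73C6 and -0.73 for UGT78D1. Its smallest absolute log2 value is 0.586. The authors' deposited table of changed introns lists 3 UGT introns among 1349, with log2 values of -2.53 for UGT85A5 (false discovery rate 0.0217), -2.05 for UGT78D1 (6.71e-05) and -0.92 for UGT85A1 (0.0792). These are given per intron and may not be the same measure as the values relative to the gene above. Without the gene as offset, edgeR here gave log2 fold changes of -2.14 for the UGT78D1 intron and -1.01 for that of UGT85A1.

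Genes on both sides of the UGT reaction were also read. Enzymes that make UDP-sugars were called in 9 of 30 cases (30%), 3 higher and 6 lower, with a median log2 fold change of 0.01. The share over all genes was 36.7% (17.8% higher and 18.9% lower). RHM1, which makes the UDP-rhamnose that UGT78D1 uses, had 197 ± 11.7 CPM in gemin2 and 284 ± 12.8 in WT, a log2 fold change of -0.53 (adjusted p = 2.43e-06). UGP1, a UDP-glucose pyrophosphorylase, had a log2 fold change of -0.35, and NRS/ER, the bifunctional enzyme of UDP-rhamnose synthesis, one of -0.27, both called lower. Called higher were UXS6 (0.24), UGE1 (0.20) and RHM3 (0.17), which act on UDP-xylose, UDP-galactose and UDP-rhamnose.

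Beta-glucosidases, which remove glucose from many UGT products, were called in 17 of the 29 tested (58.6%), against 36.7% of all genes. Called higher were 6 and lower 11, where the shares over all genes were 17.8% and 18.9%. The median log2 fold change of the beta-glucosidases was -0.09. The clearest were BGLU21 at -1.18, a scopolin-cleaving enzyme of roots, BGLU1 at -2.01 and BGLU5 at -0.52 among the lower, and BGLU46 at 0.55, BGLU44 at 0.22 and BGLU17 at 0.51 among the higher. BGLU21 had 37.4 ± 1.57 CPM in gemin2 and 85.1 ± 4.53 in WT. The genes numbered after it, BGLU22 (-0.12) and BGLU23 (0.10), did not pass. BGLU46, which acts on monolignol glucosides, had 15.3 ± 0.606 in gemin2 and 10.4 ± 1.03 in WT. The genes numbered beside BGLU46 were called lower, BGLU47 at -0.46 and BGLU45 at -1.64. BGLU45 had few reads, 9, 8 and 7 in gemin2 and 18, 34 and 18 in WT.

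Of these 8 UGT loci outside the symbol rule, 7 were tested, 1 called higher and 2 lower. That is 42.9% called, where 36.7% of all genes were called. UGT74F2, a glucosyltransferase of salicylic acid, had 789, 834 and 838 reads in gemin2, against 438, 617 and 327 in WT, and a log2 fold change of 0.73 (SE 0.104, adjusted p = 7.39e-05). UGT76B1, which glucosylates isoleucic acid and salicylic acid, had 399, 342 and 309 reads in gemin2, against 428, 475 and 372 in WT, a log2 fold change of -0.39 (adjusted p = 0.00486). The second lower one was UGT73C5. UGT72B1, which conjugates chlorinated pollutants, had a log2 fold change of 0.01 (adjusted p = 0.944). UGT87A2 (0.17), UGT80B1 (-0.09) and UGT80A2 (-0.07) did not pass either. UGT79B6 had no read in any library.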

How the data were processed

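The authors deposited read counts per gene, per splicing bin and per intron, whole and not normalised, and, per the file headers, their own log2 ratios and adjusted p-values (as FDR) for the mutant against WT. The build TAIR10 and the tools edgeR 3.4.2, TopHat2 2.0.9 and R 3.0.2 are named, per the submitters' processing notes. How reads were counted, and what was done with those mapping more than once, is not given in the sources used here. The table columns carry letters A to C that no label ties to replicate numbers, so columns were grouped by genotype only. The intron table used here ends at 65535 rows, and introns of chromosomes 4 and 5 and of part of 3 were not analysed here.

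All genes were fitted together in R 4.3.3 by edgeR 4.0.16 (filterByExpr with a minimum count of 10, TMM, quasi-likelihood F test, two-sided, Benjamini-Hochberg over all genes tested). CPM uses TMM library sizes, RPKM divides it by the deposited effective gene length, and an SE is the log2 fold change over the square root of F. Introns and bins used the log gene count as offset, a minimum count of 5 and a gene mean of at least 20 reads. DESeq2 1.42.0 was an alternative. The code was tested on simulated data. Shared words, boxes, motifs and identities were computed from TAIR10.1 with Biopython 1.88.

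Genes were named if past an adjusted p of 0.05 and an absolute log2 fold change of 0.58, if in a role list, or if among the 5 highest in WT; from the sugar supply and beta-glucosidase lists, the 3 higher and 3 lower with the largest change over its SE. UGT75B1, UGT71C1, UGT71C4, UGT85A2 and UGT89B1, the neighbours in clusters, the copies and the introns of UGT74B1, UGT85A4 and UGT85A5 were named after their values were seen. So were BGLU22, BGLU23, BGLU45 and BGLU47. The members and lists were chosen with earlier results of these data known.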

Additional observations from a re-analysis of the deposited data

How the results depend on the processing

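Of the 19 UGT genes called, 14 kept their call (6 higher, 8 lower) under each of the 13 alternatives that could test them (UGT71B6 and UGT73C7 fall under a minimum count of 50), and all 19 kept their direction there; the losses of UGT76D1, UGT84A3, UGT74E2, UGT71C4 and UGT89B1 stand in the report, apart from DESeq2 adjusted p-values of 0.222 for UGT71C4 and 0.101 for UGT89B1. Directions that turned when 1 library was left out belonged to genes that did not pass: UGT74F1 (0.0249 without gemin2 B, 0.0252 without WT B, range -0.133 to 0.0252), UGT88A1 (0.0033 without gemin2 A, 0.0124 without gemin2 B, 0.0236 without WT B, 0.0130 without WT C, range -0.0528 to 0.0236), UGT76C1 (-0.0464 without gemin2 B, -0.0247 without WT A, range -0.0464 to 0.0735), UGT73B3 (-0.0217 without WT C, range -0.0217 to 0.233), UGT75B2 (0.0475 without gemin2 B, 0.263 without WT A), UGT85A7 (0.411 without gemin2 C, 0.116 without WT A) and UGT85A3 (-0.259 without gemin2 C, -0.0603 without WT B, and -0.0162 with the replicate block). Besides those in the report, calls were gained for UGT76E2 (0.89 without gemin2 C, 1.01 without WT B), UGT76E11 (-0.28 without gemin2 C) and UGT71C3 (0.46 without WT A). UGT introns called went to 0 with DESeq2 and to between 1 and 3 with 1 library left out; without the gene as offset 3 UGT bins were called, all in UGT73B4, whose gene count also rose. The cause of the losses in DESeq2 was not tested.

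Libraries of the same column letter showed no shared deviation: their deviations correlated at -0.0055 (A), -0.016 (B) and -0.058 (C). These values cannot say whether libraries of a letter were grown or prepared together. A replicate block on the letter gave 20 UGT genes called, 11 higher and 9 lower, with UGT71C5 (0.0317) and UGT71C3 (0.0496) gained and UGT71C4 lost (adjusted p = 0.0525). With the core CANNTG in place of the G-box, 5 of 10 higher, 3 of 9 lower and 18 of 29 windows that did not pass held a match, against 56.3% of all. Reads limit the precision: the SE was 0.268 for UGT71B6 and 0.240 for UGT76D1, against 0.0529 for the abundant UGT75B1.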
